A study of Mus musculus with 21 samples.

Results

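The ETn and MusD retroelements of the mouse were represented by 4 of the 1217 repeat names in the deposited read counts, chosen as the names beginning with ETn, MusD or RLTRETN. They were the internal names ETnERV-int, ETnERV2-int and ETnERV3-int and the long terminal repeat (LTR) name RLTRETN_Mm; no name began with MusD. MMETn-int, a related internal name that the rule does not cover, is described beside them and is not counted among the 4. The RNA came from male germ cells sorted by the fluorescence of an Oct4-GFP reporter, on a mixed strain background, from litters of Tex15 heterozygous parents. The groups were Tex15 knockout (KO) and heterozygous (HT) cells at embryonic days 16.5 and 18.5 (E16.5 and E18.5), and KO, HT and wild-type (WT) cells after birth, with 3 libraries in each of the 7 groups. The postnatal age is given as day 2 and as 2.5 in the labels and is written D2.5 here. All groups were sorted by the reporter, no embryonic wild type was sampled, and HT cells, with 1 copy of Tex15 lost, are the controls at the embryonic ages. The series calls the triplicates biological, but the labels do not tie a library to an animal or pool.

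ETn (early transposon) and MusD elements are mouse endogenous retroviruses with LTRs, of the ERVK class. MusD copies can hold retroviral genes, whereas ETn copies have lost theirs and are copied with proteins made by MusD; new ETn and MusD insertions are a known source of mouse mutations. An LTR holds the promoter and the ends of the element, and the internal part lies between the LTRs. In fetal male germ cells DNA methylation is erased and then laid down again, and retroelements are a main target of piRNA-guided methylation in this period. TEX15, first known for its role in meiotic recombination, is also known as a factor of transposon silencing in fetal male germ cells. The comparisons ask whether RNA counted under the ETn and MusD names differs when Tex15 is missing, and at which ages.

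Levels are read counts scaled to the gene total of each library (CPM), with TMM factors, and each fold change is a log2 fold change with its standard error (SE) from edgeR. Gene totals were 6063632 to 11884109 reads per library, lowest at D2.5, and repeat names took 41.9% to 69.4% of all counted reads. The 4 names together held 10911 to 52850 reads per library. Tex15 was at 3.39 CPM in KO and 976 CPM in HT at E16.5, at 3.03 CPM in KO and 781 CPM in HT at E18.5, and at 20.9 CPM in KO, 1877 CPM in HT and 4042 CPM in WT at D2.5. The 10 germ cell markers summed to 2889 to 6703 CPM per library, against 39.0 to 96.0 CPM for 3 endothelial, 12.6 to 48.7 CPM for 5 Leydig, 9.17 to 154 CPM for 5 Sertoli and 22.7 to 516 CPM for 4 stromal markers. At E16.5 the first principal component of the genes (78.2% of the variance) set HT replicate 1, at 127.3, apart from the other libraries. KO replicate 3 was at -74.8 and HT replicate 3 at -55.8, with the rest at -2.81 to 5.82. At D2.5 KO replicate 3 stood apart on a first component with a smaller part of the variance (18.75%), at 113.2, with the others at -35.3 to 19.1. The KO against HT changes of the 4 names at E16.5 are also given without HT replicate 1 and without KO replicate 3. Those of KO against HT or WT at D2.5 are also given without KO replicate 3. In bulk RNA, fewer expressing cells and less RNA per cell cannot be told apart.

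At E18.5 all 4 names were higher in KO than in HT cells, by 1.61-fold to 2.91-fold. ETnERV-int had 501, 442 and 494 CPM in the KO libraries, against 173, 149 and 171 CPM in the HT libraries. ETnERV3-int had 463, 438 and 553 CPM in KO, against 241, 247 and 258 CPM in HT. The lowest KO library of either name was well above the highest HT library.

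ETnERV2-int, the internal name with the most reads, had 2830.4, 2560.2 and 3225 CPM in KO cells at E18.5, against 1653, 1406 and 1553 CPM in HT cells. The LTR name RLTRETN_Mm had 646, 579.9 and 689.7 CPM in KO, against 421, 363 and 402 CPM in HT. MMETn-int had 1817, 1894 and 2524 CPM in KO, against 803, 706 and 813 CPM in HT. The KO and HT libraries did not overlap for any of these names, and KO replicate 3 was the highest library of ETnERV2-int, ETnERV3-int, RLTRETN_Mm and MMETn-int.

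**Figure D1:**
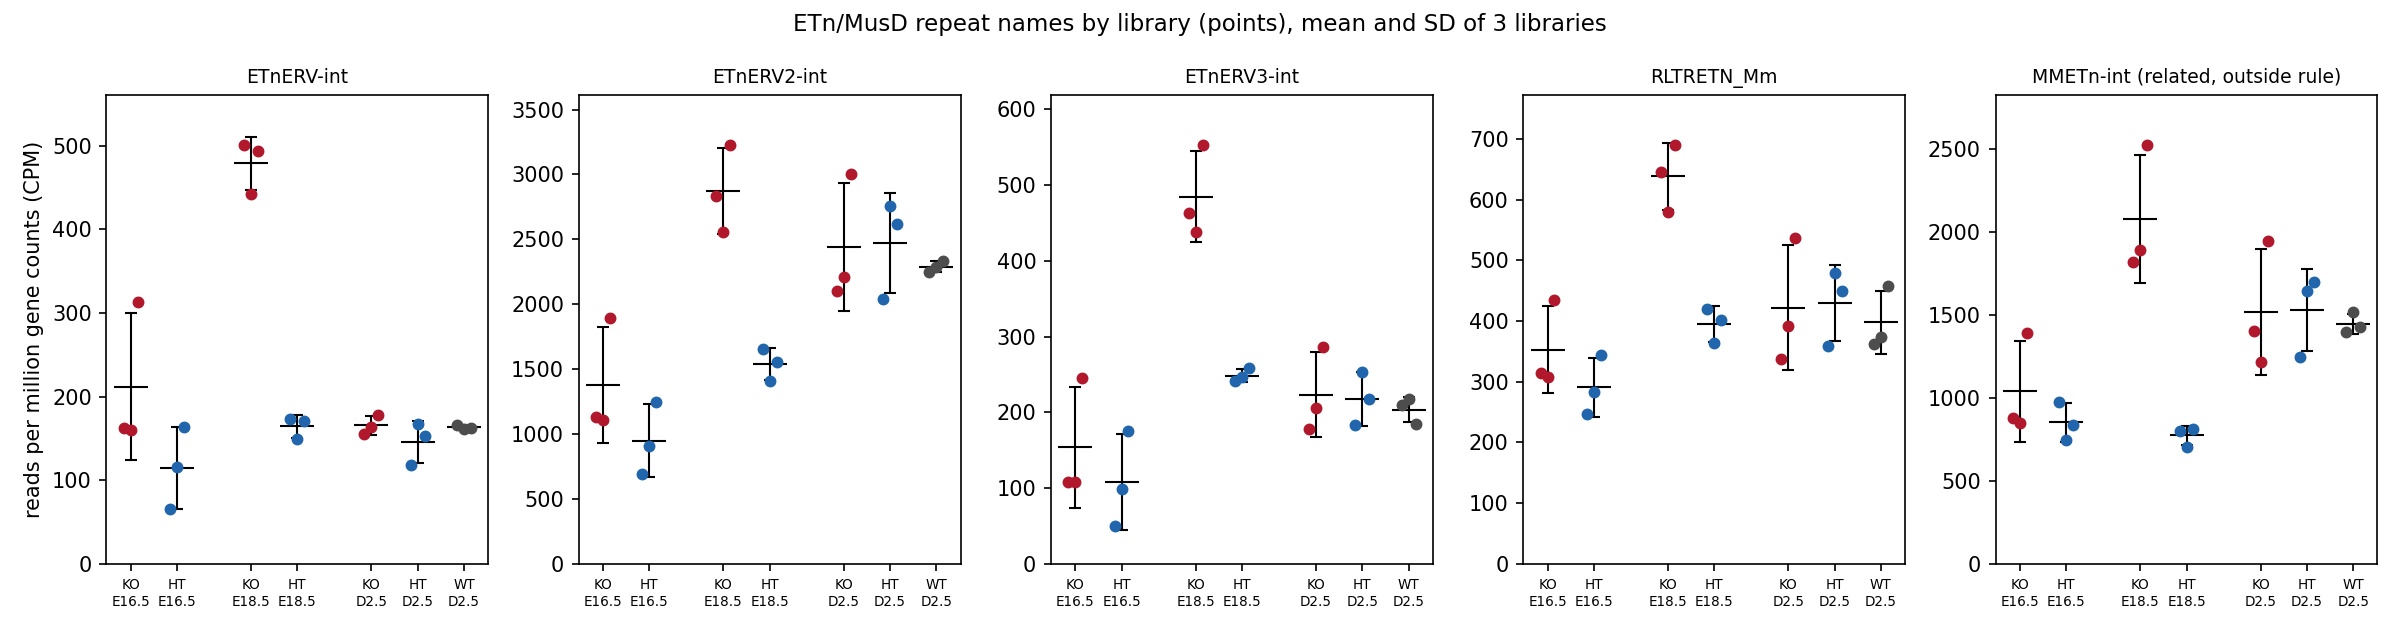
Level of each name (CPM, y axis from 0) in the 21 libraries, as points by genotype and age, with the mean and SD of 3 libraries. KO cells at E18.5 have the highest mean in every panel; at D2.5 KO, HT and WT libraries overlap.

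In edgeR's quasi-likelihood test with Benjamini-Hochberg adjustment over all 1125 repeat names tested at E18.5, 4 of 4 names passed as higher in KO, where 9.87% of all names did. The KO and HT libraries did not overlap for 4 of 4, with every KO library above every HT library, as held for 17.1% of all names. ETnERV-int had a log2 fold change of 1.54 (SE 0.18, adjusted p = 1.15e-15 in edgeR); the others had 0.96 (SE 0.18, edgeR adjusted p = 1.62e-06) for ETnERV3-int, 0.90 (SE 0.18, edgeR adjusted p = 2.62e-05) for ETnERV2-int and 0.69 (SE 0.18, edgeR adjusted p = 0.00175) for RLTRETN_Mm. ETnERV-int ranked 13 and RLTRETN_Mm ranked 82 of the 1125 names by log2 fold change. MMETn-int, at 1.42 (SE 0.18, edgeR adjusted p = 8.88e-13), ranked 16. The median over the 4 names was 0.93, beside 0.18 over all names. Measured from that median, the 4 names stood at 1.36, 0.78, 0.71 and 0.51 in the order just given.

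The edgeR fit at E18.5 gave each name the spread of names of like abundance, so that these SEs do not measure a name's own replicates. With genes and repeat names in 1 fit the adjusted p-values were 1.42e-05 to 0.0143 in edgeR, with 4 of 4 passing and 72 of 1125 names called in either direction, against 113. With 1 library left out 4 of 4 still passed, while the names called were 63 without KO replicate 3, 65 without KO replicate 1 or HT replicate 3, and 274 without HT replicate 1. The replicate number as a block, which treats libraries of the same number as pairs, also left 4 of 4 higher, with 210 of 1125 names called. The labels do not give such pairs. Scaled to reads on all repeat names instead of genes, the log2 fold changes were smaller (1.24 for ETnERV-int, 0.65 for ETnERV3-int, 0.60 for ETnERV2-int and 0.39 for RLTRETN_Mm, all 4 passing), and the median of all names was -0.11. Of 94 names called under that scaling 76 were higher in KO, against 111 of 113.

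Of the markers of other cells, the 6 macrophage and blood genes moved with the genotype at E18.5: their sum was 63.9 to 78.6 CPM in KO libraries and 26.2 to 30.5 CPM in HT libraries. Mrc1, a mannose receptor of macrophages and some endothelia, made up most of this, at a mean of 51.0 CPM in KO and 14.4 CPM in HT. Adgre1 was at 8.40 CPM in KO and 3.11 CPM in HT, Cd68 at 5.37 CPM in KO and 6.82 CPM in HT, and Hbb-b1 was at 0 in both. The part of these genes in the difference was not tested. Germ cell markers summed to 2889 to 3227 CPM in KO and 2912 to 3508 CPM in HT at this age. At D2.5 the sum of each marker set overlapped between KO, HT and WT. Stromal markers reached higher in KO there, at 215 to 516 CPM, against 148 to 227 CPM in HT and 127 to 290 CPM in WT. So did Sertoli markers, at 27.5 to 154 CPM in KO, 25.9 to 45.3 CPM in HT and 21.2 to 77.1 CPM in WT. The part of these cells in the D2.5 comparisons was not tested.

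Earlier, at E16.5, no name passed and the genotypes overlapped. ETnERV-int had 162, 160.0 and 314 CPM in KO libraries, against 65.5, 116 and 164 CPM in HT libraries. ETnERV2-int had 1133, 1105 and 1897 CPM in KO, against 691, 909 and 1249 CPM in HT. For both names KO replicate 3 was the highest of the 6 libraries and HT replicate 1 the lowest, and the groups overlapped.

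ETnERV3-int had 108, 108 and 246 CPM in KO cells at E16.5, against 50.5, 98.1 and 175 CPM in HT cells. RLTRETN_Mm had 314, 308 and 435 CPM in KO, against 247, 283 and 343 CPM in HT. MMETn-int had 879, 851 and 1391 CPM in KO, against 975, 744 and 840 CPM in HT. KO replicate 3 was again the highest library of each name, and HT replicate 1 was the lowest of ETnERV3-int and RLTRETN_Mm but not of MMETn-int.

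The E16.5 log2 fold changes were 0.89 (SE 0.39) for ETnERV-int, 0.55 (SE 0.29) for ETnERV2-int, 0.52 (SE 0.50) for ETnERV3-int, 0.29 (SE 0.19) for RLTRETN_Mm and 0.30 (SE 0.21) for MMETn-int, with edgeR adjusted p-values of 0.584 to 0.63. In edgeR 0 of 4 names passed, where 0% of the 1090 names tested did; 67 names and 0 of the 4 had an unadjusted p under 0.05, and DESeq2 and limma-voom also called 0 of 4. KO lay above HT without overlap for 0 of 4, and for 12.9% of all names. The median over the 4 was 0.53, beside 0.14 over all names. Without KO replicate 3 the changes were 0.48 for ETnERV-int, 0.24 for ETnERV2-int, -0.01 for ETnERV3-int and 0.10 for RLTRETN_Mm. Without HT replicate 1 they were 0.62, 0.37, 0.19 and 0.19 in the same order. Over all 6 runs with 1 library left out they ranged over 0.48 to 1.25, 0.24 to 0.82, -0.01 to 1.08 and 0.10 to 0.44. In each of these runs 0 of 4 passed in edgeR.

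After birth, at D2.5, the genotypes could not be told apart at any of the names. ETnERV-int had 156, 164 and 178 CPM in KO libraries, 118, 167 and 153 CPM in HT libraries, and 166, 161 and 162 CPM in WT libraries. ETnERV2-int had 2102, 2207 and 3005 CPM in KO, 2037, 2758 and 2619 CPM in HT, and 2249, 2290.5 and 2331 CPM in WT. The WT libraries of both names lay close together and within the KO range.

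ETnERV3-int had 178, 206 and 286 CPM in KO cells at D2.5, 183, 253 and 218 CPM in HT cells, and 209, 217 and 185 CPM in WT cells. RLTRETN_Mm had 338, 392 and 536 CPM in KO, 359, 479 and 450.0 CPM in HT, and 363, 373 and 458 CPM in WT. MMETn-int had 1401, 1214 and 1944 CPM in KO, 1247, 1644.5 and 1698 CPM in HT, and 1395, 1517 and 1426 CPM in WT. KO replicate 3 was the highest KO library of every name, and HT replicate 1 the lowest HT library.

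KO against HT at D2.5, the log2 fold change was 0.18 (SE 0.26) for ETnERV-int, -0.02 (SE 0.21) for ETnERV2-int, 0.03 (SE 0.25) for ETnERV3-int, -0.03 (SE 0.23) for RLTRETN_Mm and -0.01 (SE 0.21) for MMETn-int. The upper ends of the 95% intervals were 0.69, 0.40, 0.52, 0.42 and 0.40 in the same order. As at E18.5, these SEs and intervals rest on the spread of names of like abundance, not on a name's own replicates. In edgeR 0 of 4 names passed (adjusted p 0.814 to 0.977), where 1.17% of the 1110 names passed as higher and 0.0901% as lower. No member had an unadjusted p under 0.05, which 77 of all names had, and DESeq2 and limma-voom called 0 of 4. The libraries of KO and HT overlapped for 4 of 4; every KO library lay above every HT library for 3.06% of all names and below for 5.95%. Without KO replicate 3 the values were 0.13, -0.20, -0.19 and -0.24 for the 4 names, so that the sign of ETnERV3-int turned. The median of all names was -0.18, and the 4 names stood 0.15 to 0.36 above it.

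KO cells set against WT cells gave log2 fold changes of 0.02 to 0.13 for the 4 names at D2.5, and 0 of 4 passed in edgeR, where 1.44% of all names did (72 names and 0 of the 4 had an unadjusted p under 0.05). HT cells set against WT cells gave -0.16 to 0.12, with 0 of 4 passing in edgeR, where 0% of all names did (16 names and 0 of the 4 had an unadjusted p under 0.05). DESeq2 and limma-voom called 0 of 4 in both comparisons. The pairs of D2.5 comparisons share libraries and are not independent. Without KO replicate 3 the 4 values of KO against WT lay at -0.12 to -0.03.

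**Figure D2:**
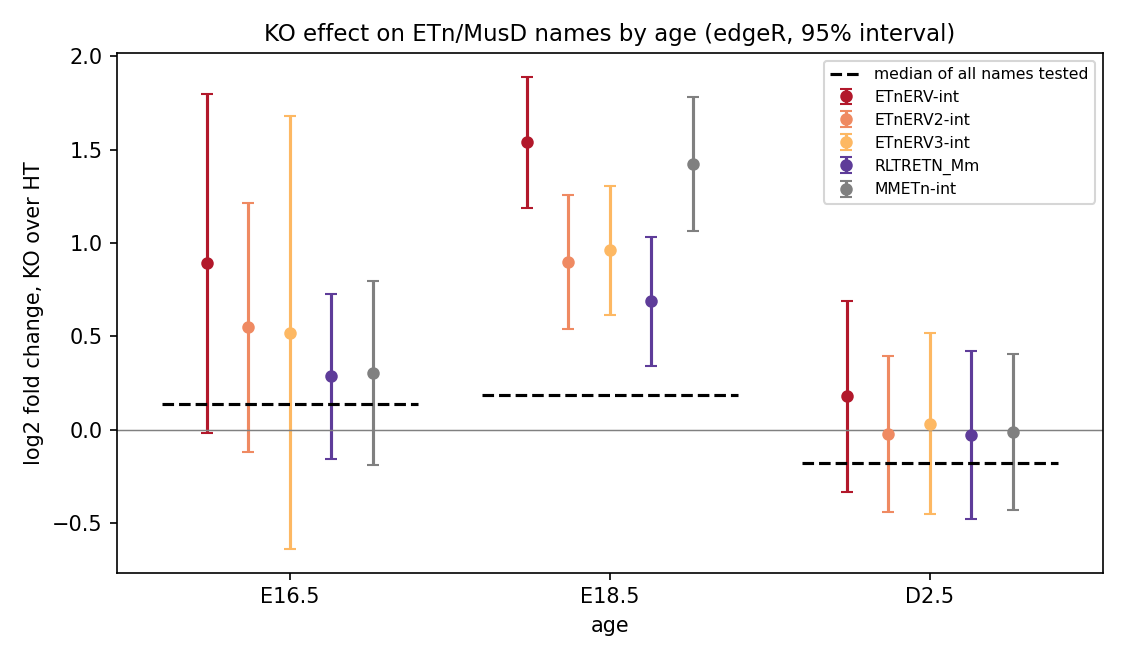
Log2 fold change of KO over HT at each age for each name, with its 95% interval from edgeR, beside the median of all repeat names tested (dashed). The intervals at E18.5 lie above 0 for all 5 names drawn, and those at E16.5 and D2.5 include 0.

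The difference of the KO effect between ages was tested itself, in 1 edgeR fit of the 18 KO and HT libraries. The KO effect at D2.5 minus that at E18.5 was -1.36 for ETnERV-int (SE 0.34, edgeR adjusted p = 0.0318), which passed as lower. The difference was -0.92 (SE 0.30, edgeR adjusted p = 0.12) for ETnERV2-int, -0.93 (SE 0.41, edgeR adjusted p = 0.252) for ETnERV3-int and -0.72 (SE 0.26, edgeR adjusted p = 0.178) for RLTRETN_Mm. MMETn-int had -1.43 (SE 0.28, edgeR adjusted p = 0.00608), and its call ended with repeat totals as the scale (-0.99, edgeR adjusted p = 0.102) and with genes and names in 1 fit (-1.43, edgeR adjusted p = 0.0985). So 1 of 4 names passed as lower, where 1.75% of the 1144 names did. In edgeR 4 of 4, and 186 of all names, had an unadjusted p under 0.05. The median of all names was -0.36.

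The call of ETnERV-int depended on the libraries and the scaling. It ended without any one of 9 of the 18 libraries (KO replicate 1 or 3 or any HT replicate of E18.5, KO replicate 1 or 2 or HT replicate 2 or 3 of D2.5) and with RLE factors (-1.35, edgeR adjusted p = 0.0675), while in the 12 libraries of E18.5 and D2.5 alone it held (-1.33, SE 0.30, edgeR adjusted p = 0.00151). Without KO replicate 3 of D2.5, 3 of 4 names passed, RLTRETN_Mm at -0.89 and ETnERV2-int at -1.06 among them. Without HT replicate 1 of D2.5 3 of 4 passed as well, and without HT replicate 1 of E16.5 2 of 4. Calls over all names rose too in these runs, to 43, 58 and 33 of either direction in the same order, against 20 with all libraries. Between E16.5 and E18.5 the KO effect was larger at E18.5 by 0.36 to 0.66 for the 4 names, and 0 of 4 passed in edgeR, where 0.175% of names passed as higher; 28 names and 0 of the 4 had an unadjusted p under 0.05, and DESeq2 and limma-voom called 0 of 4. MMETn-int had 1.14 (SE 0.28, edgeR adjusted p = 0.119) for that difference. It passed without KO replicate 3 of E16.5 (1.37, edgeR adjusted p = 0.00462), with DESeq2 (1.14, adjusted p = 0.0456) and with the replicate block (1.16, edgeR adjusted p = 0.00801), and not without HT replicate 1 of E16.5 (1.01, edgeR adjusted p = 0.0692).

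Of other ERVK elements, a few names were higher in KO at both E18.5 and D2.5. IAPEz-int is 1 of several internal names of the intracisternal A particle elements (IAP). Its mean was 1394 CPM in KO and 624 CPM in HT at E16.5, and 1567 CPM in KO and 564 CPM in HT at E18.5. At D2.5 it was 1852 CPM in KO, 587 CPM in HT and 581 CPM in WT. Its log2 fold change of KO over HT was 1.47 (SE 0.18, edgeR adjusted p = 6.98e-14) at E18.5 and 1.65 (SE 0.22, edgeR adjusted p = 4.14e-11) at D2.5. Of the 16 IAP names 16 passed as higher at E18.5 and 4 at D2.5 (IAPEz-int, IAPLTR1_Mm, IAPLTR2a and IAPLTR2b), with medians of 1.13 and 0.32. The internal names IAPEy-int, IAPEY3-int, IAP-d-int, IAPLTR3-int and IAPLTR4_I lay at -0.0049 to 0.98 at D2.5, and none of them passed there. Of all names 9.87% passed as higher at E18.5 and 1.17% at D2.5. Of the 9 MMERVK10C and RLTR10 names 8 passed at E18.5 and 1 at D2.5, with medians of 1.11 and 0.22.

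Set against IAPEz-int in the same library, ETnERV-int had 30.6% ± 2.46 as many reads in KO and 29.3% ± 2.12 in HT at E18.5, a pair of groups that overlapped. At D2.5 the same ratio was 8.96% ± 0.864 in KO, 24.7% ± 1.64 in HT and 28.1% ± 1.05 in WT (SD, n = 3 each), and KO did not overlap HT or WT. ETnERV2-int had 132% ± 31.3 of the IAPEz-int reads in KO at D2.5, 420% ± 22.96 in HT and 395% ± 26.7 in WT. At E18.5 it had 184% ± 27.4 in KO and 275% ± 19.9 in HT. IAPEz-int was taken for this after its values had been seen, so these ratios restate its own rise in KO beside the members and carry no test.

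**Figure D3:**
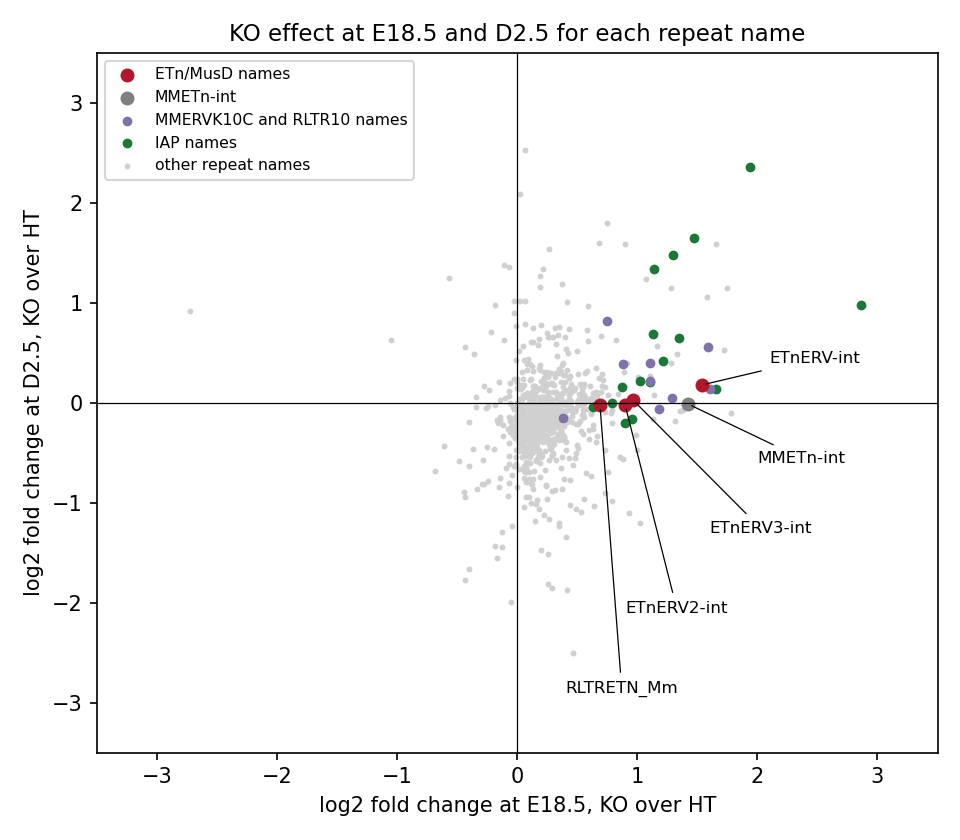
Log2 fold change of KO over HT at E18.5 (x axis) and at D2.5 (y axis) for the 1095 repeat names tested at both ages. The 4 ETn and MusD names lie at 0.69 to 1.54 on the x axis and at -0.03 to 0.18 on the y axis. MMERVK10C and RLTR10 names lie at 0.38 to 1.61 on the x axis and at -0.16 to 0.82 on the y axis. IAP names reach 2.35 on the y axis.

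Within KO cells all 4 names were higher at E18.5 than at E16.5, and 3 of 4, all but ETnERV2-int, were lower at D2.5 than at E18.5. The mean of ETnERV-int in KO was 212 ± 88.2 CPM at E16.5, 479 ± 32.0 CPM at E18.5 and 166 ± 11.2 CPM at D2.5 (SD, n = 3 each). In HT cells it was 115 ± 49.1, 164 ± 13.2 and 146 ± 25.1 CPM at the same ages. ETnERV-int in KO cells at E18.5 thus stood alone, while the other 6 groups overlapped their neighbours in the order of means.

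KO cells at E18.5, set against KO cells at E16.5, had log2 fold changes of 1.66 for ETnERV3-int, 1.18 for ETnERV-int, 1.06 for ETnERV2-int and 0.86 for RLTRETN_Mm, and 4 of 4 passed in edgeR (adjusted p 0.000539 to 0.00167), where 29.4% of names did. The median of all names was 0.44. Without KO replicate 2 of E16.5, 1 of 4 passed, and 8 of all 1144 names were called instead of 337. Scaled to reads on all repeat names 3 of 4 passed, with ETnERV-int at 0.81 (edgeR adjusted p = 0.0577) and RLTRETN_Mm at 0.48 (edgeR adjusted p = 0.0295). HT cells at E18.5, set against HT cells at E16.5, gave 1.20 for ETnERV3-int (SE 0.29, edgeR adjusted p = 0.0192) and 0.69 for ETnERV2-int (SE 0.21, edgeR adjusted p = 0.0437), so that 2 of 4 passed, where 6.64% of names did and the median was 0.34. ETnERV-int and RLTRETN_Mm were at 0.51 and 0.44 there. These HT calls ended, with 0 of 4 passing, without HT replicate 1 or 2 of E16.5, HT replicate 1, 2 or 3 of E18.5 or KO replicate 2 of E18.5. Without any other library 1 of 4 passed, except without HT replicate 3 of E16.5, where 3 did.

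KO cells at D2.5, set against KO cells at E18.5, had log2 fold changes of -1.53 for ETnERV-int (SE 0.24, edgeR adjusted p = 1.6e-06), -1.12 for ETnERV3-int (SE 0.29, edgeR adjusted p = 0.000967) and -0.59 for RLTRETN_Mm (SE 0.18, edgeR adjusted p = 0.00423), whereas ETnERV2-int was at -0.23 (SE 0.21, edgeR adjusted p = 0.305). So 3 of 4 passed as lower, where 6.21% of names did and 70.3% passed as higher. RLTRETN_Mm did not pass without KO replicate 1 of D2.5 (-0.37). The median of all names was 1.00, and relative to it the 4 names stood at -2.53 to -1.23. Scaled to reads on all repeat names, 4 of 4 passed as lower, at -2.37 for ETnERV-int, -1.99 for ETnERV3-int, -1.46 for RLTRETN_Mm and -1.10 for ETnERV2-int (edgeR adjusted p = 3.55e-05 for the last). Under that scaling 402 of 653 names called were higher, against 804 of 875.

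HT cells at D2.5, set against HT cells at E18.5, had 0.69 for ETnERV2-int (SE 0.21, edgeR adjusted p = 0.00341), the 1 of 4 that passed as higher, where 79.1% of names did. MMETn-int was also higher, at 0.98 (SE 0.20). The other members were at -0.19 to 0.12. The median of all names was 1.36, and scaled to reads on all repeat names ETnERV2-int was at -0.62 and MMETn-int at -0.33, so that the direction of both turned. The other members were then at -1.48 for ETnERV-int, -1.51 for ETnERV3-int and -1.19 for RLTRETN_Mm, and 4 of 4 passed as lower in edgeR. Under that scaling 338 of 594 names called were higher, against 905 of 940. As a share of all reads counted to repeat names, the 4 names held 0.236% in KO and 0.175% in HT at E16.5, 0.388% in KO and 0.251% in HT at E18.5, and 0.155% in KO, 0.141% in HT and 0.137% in WT at D2.5. The share was thus lowest at D2.5 in both KO and HT, also where CPM was higher.

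The order of the groups by mean level was alike at the top among the names and varied below it. KO at E18.5 came first for the 4 names and MMETn-int, and its libraries did not overlap the next group except for ETnERV2-int, where HT at D2.5 came next. HT at E16.5 came last for the 4 names, and HT at E18.5 for MMETn-int. For ETnERV2-int, RLTRETN_Mm and MMETn-int the 3 D2.5 groups came next after KO at E18.5. Those of ETnERV2-int lay above the other embryonic groups without overlap, and those of RLTRETN_Mm and MMETn-int did not. For ETnERV-int KO at E16.5 came next after KO at E18.5, whereas it was next to last for ETnERV2-int, ETnERV3-int and RLTRETN_Mm. For ETnERV3-int HT at E18.5 came next after KO at E18.5, with 249 ± 8.56 CPM (SD, n = 3).

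The makeup of the reads within the 4 names is given without a test. At E18.5 the shares of ETnERV-int and RLTRETN_Mm did not overlap between KO and HT, and those of ETnERV2-int and ETnERV3-int did. ETnERV-int took 10.7% ± 0.698 of them in KO and 7.004% ± 0.148 in HT, and RLTRETN_Mm took 14.3% ± 0.341 in KO and 16.8% ± 0.0688 in HT (SD, n = 3 each). ETnERV3-int took 10.8% ± 0.365 in KO and 10.6% ± 0.869 in HT. ETnERV2-int took 64.1% ± 0.745 in KO and 65.5% ± 0.812 in HT at E18.5, and 75.1% ± 0.724 in KO, 75.7% ± 0.392 in HT and 75.0% ± 0.554 in WT at D2.5. These are shares of reads and not of molecules, since the length behind each name is not in the counts.

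Per read of the LTR name RLTRETN_Mm, ETnERV-int had 0.752 ± 0.0312 reads in KO and 0.416 ± 0.00842 in HT at E18.5, and MMETn-int had 3.25 ± 0.423 in KO and 1.96 ± 0.0580 in HT (SD, n = 3 each). ETnERV2-int had 4.49 ± 0.161 reads in KO and 3.89 ± 0.0348 in HT, and ETnERV3-int had 0.758 ± 0.0424 in KO and 0.632 ± 0.0541 in HT. None of these 4 ratios overlapped between the genotypes at E18.5. All 4 are divided by RLTRETN_Mm, which had the smallest log2 fold change of the names shown at that age (0.69). They are therefore not separate results. The share without overlap was not taken for ratios of other names, so these counts have no background. At E16.5 the ratio of ETnERV-int did not overlap either, at 0.585 ± 0.118 in KO and 0.384 ± 0.108 in HT, and the other 3 ratios overlapped. Each of these 5 differences gave p = 0.1 in an exact permutation test (two-sided), the smallest that 3 against 3 libraries allow, and 0.333 after adjustment over 20 tests. At D2.5 KO overlapped HT and WT for each of the 4 ratios. HT did not overlap WT there for ETnERV-int, at 0.339 ± 0.00963 in HT and 0.415 ± 0.0545 in WT (exact permutation p = 0.1, adjusted 0.333).

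**Figure D4:**
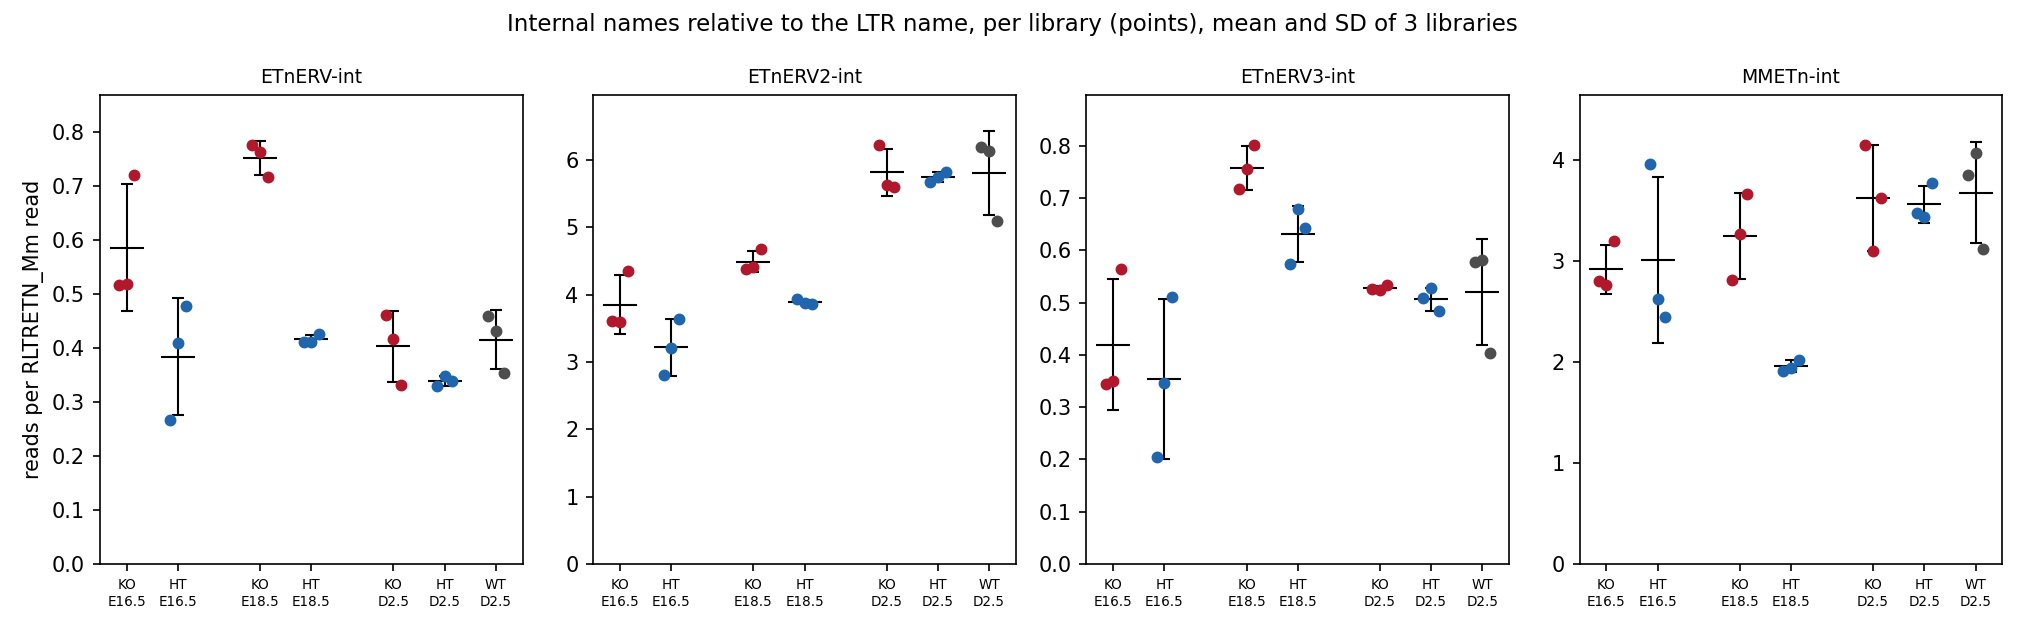
Reads of each internal name per read of the LTR name RLTRETN_Mm (y axis from 0) in the 21 libraries, with the mean and SD of 3 libraries. The KO and HT libraries at E18.5 are apart in all 4 panels, farthest for ETnERV-int (0.752 in KO, 0.416 in HT) and MMETn-int (3.25 in KO, 1.96 in HT). All 4 panels are divided by the same name and are not independent.

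Copies of such elements can be alike in sequence, which was not examined here. How reads that map to several copies were counted is not given in the sources used here. A value for 1 name can therefore hold reads from copies of another, and the differences between the internal names are uncertain to that extent. The counts also do not tell reads that start in an element from reads that run into one from a neighbouring gene.

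The names whose pattern over the 21 libraries was most like that of the 4 summed names were other LTR retroelement names. By the root mean square difference of centred log2(CPM + 1), among 1113 names, they were RLTR9A (0.180), RLTR10 (0.181), LTRIS2 (0.185), RLTR1D (0.187) and SRV_MM-int (0.207). RLTR10 was at 0.77 in KO and -0.53 in HT at E18.5 on this scale, beside 0.74 in KO and -0.19 in HT for the summed names. The nearest of 15699 genes were farther off: Homer2 (0.330), Hmcn1 (0.333), Col25a1 (0.342), Nabp1 (0.354) and Gli3 (0.357). The libraries share their sequencing depth and scaling in all of these values, which are descriptions and carry no test.

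Of 30 listed genes of LTR retroelement repression (piRNA pathway, DNA methylation and histone H3K9 methylation genes), 28 were in the gene counts used and tested. At E16.5 1 of 28 passed as lower in KO (0.00618% of all genes did) and 0 as higher (0% of all genes), and at E18.5 2 of 28 passed as lower (0.0659% of all genes) and 0 as higher (2.07% of all genes). At D2.5 1 of 28 passed as lower in KO than in HT (0.00696% of all genes) and 0 as higher (0.146%), and 1 of 28 as lower in KO than in WT (0.0209% of all genes). An unadjusted p under 0.05 in edgeR was found for 1 of 28 genes at the first age and for 4 at the second. After birth it was found for 3 against HT and 3 against WT. These counts include Tex15 each time. The same count over all genes was not taken, so they have no background. Tex15 was the only listed gene lower at E16.5 and D2.5, with log2 fold changes over HT of -8.16 and -6.49.

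Gtsf1, a piRNA pathway factor, was the other lower gene at E18.5, at 44.5 ± 4.81 CPM in KO and 98.7 ± 9.15 CPM in HT (SD, n = 3 each; log2 fold change -1.15, SE 0.15, edgeR adjusted p = 0.000554). Suv39h2, an H3K9 methyltransferase, was at 339 ± 20.3 CPM in KO, 179 ± 17.4 CPM in HT and 169 ± 28.8 CPM in WT at D2.5 (SD, n = 3 each). It passed against WT (1.01, SE 0.19, edgeR adjusted p = 0.0174), as the 1 of 28 that was higher (0.195% of all genes were), and not against HT (0.92, SE 0.19, edgeR adjusted p = 0.0529). Dnmt3l, a cofactor of de novo DNA methylation, was at 176 CPM in KO and 186 CPM in HT at E18.5, and Trim28, the corepressor of KRAB zinc finger proteins, at 208 CPM in KO and 249 CPM in HT, and neither passed (edgeR adjusted p 0.983 and 0.764).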

How the data were processed

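RNA of sorted male germ cells was extracted with PicoPure, amplified and prepared with Ovation systems from NuGEN and sequenced on an Illumina HiSeq, per the labels. The mm9 build, edgeR, featureCounts, Bowtie and STAR are listed in the submitters' processing notes. The role or version of each tool, like the treatment of reads with several matches, is not given in the sources used here. Deposited values used here are raw read counts of the authors for 24495 gene rows and 1217 repeat names in 1 table per age. The deposited family tables were not used, since they do not separate ETn and MusD from other ERVK. No pair of libraries had identical counts.

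A name entered a test if 3 or more libraries had 10 or more of its reads. Tests were two-sided quasi-likelihood tests of edgeR 4.0.16 (R 4.3.3), scaled by gene totals and TMM factors computed on genes, with Benjamini-Hochberg adjustment over all names tested and a threshold of 0.05. All 4 members passed this filter in every fit. Each embryonic age had its own fit of 6 libraries, D2.5 had 1 of 9 libraries, and differences between ages came from 1 fit of 18 libraries. The SE is the size of the log2 fold change divided by the square root of F. Genes were tested likewise after filterByExpr (minimum count 10, minimum total 15). Exact permutation tests were run on log2 ratios. Scripts were tested on simulated data. Alternatives were RLE factors, TMM over genes and names, repeat totals as library sizes, no filter, a filter of 50 reads, DESeq2 1.42.0, limma-voom 3.58.1, 1 fit of genes and names, edgeR's newer quasi-likelihood method, replicate blocks and leaving out each library. A fit of the 12 libraries of E18.5 and D2.5 was added after seeing the data.

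KO and HT libraries of the same number had weakly positive correlations of their deviations at E18.5 (0.215, 0.191 and 0.152). Those of different number were at -0.170 to 0.00413. The labels give no pairs, and values this small do not establish them. The block ended no member's call at that age. At E16.5 the correlations were 0.586, 0.0634 and 0.722, and at D2.5 -0.110 to 0.0558. The numbers were not taken as pairs in the main fits, and pairing at E16.5 cannot be decided from these values. Named were all members, MMETn-int, Tex15, listed genes that passed with 2 others, the 5 nearest names and genes without predicted models, and IAP and MMERVK10C names for comparison. The members and lists were chosen with earlier results of these data known. The p-values rest on the spread between libraries. In the E18.5 and D2.5 fits of repeat names that spread is the one of names of like abundance, and not a name's own. Figures used Python 3.11.15 with matplotlib 3.10.9.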

Additional observations from a re-analysis of the deposited data

Results flagged for a closer look

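The KO effect, as a log2 fold change of KO over HT, differed between D2.5 and E18.5 in the test of the difference itself for ETnERV-int (-1.36, SE 0.34, edgeR adjusted p = 0.0318; KO over HT was 0.18 at D2.5 and 1.54 at E18.5). It also differed for MMETn-int (-1.43, SE 0.28, edgeR adjusted p = 0.00608; KO over HT was -0.01 at D2.5 and 1.42 at E18.5). The 4 members lay at -1.36 to -0.72 and all names at a median of -0.36. The call of ETnERV-int ended in 9 of the 18 runs with 1 library left out. It also ended with RLE factors, repeat totals and genes and names in 1 fit (edgeR adjusted p = 0.0675, 0.295 and 0.204). The call of MMETn-int ended with repeat totals and in 1 fit (edgeR adjusted p = 0.102 and 0.0985).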

How the results depend on the processing

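The 4 calls at E18.5 held in each of the 16 alternatives run, and no alternative called a member at D2.5 (KO against HT, KO against WT or HT against WT) or in the KO effect of E18.5 minus E16.5. With the replicate block, a pairing that the labels do not give, 2 members passed at E16.5 (ETnERV-int 0.91 and ETnERV2-int 0.54). The block also gave 4 in the KO effect of D2.5 minus E18.5 (303 of all names against 20 without it) and 4 in HT at E18.5 against E16.5. For D2.5 minus E18.5 the 1 member called became 0 with RLE factors, with repeat totals and with genes and names in 1 fit, and 0 to 3 with 1 library left out. For HT at E18.5 against E16.5 the 2 became 0 with TMM over genes and names and 0 with repeat totals, and 0 to 3 with 1 library left out; for KO the 4 became 1 to 4. For HT at D2.5 against E18.5 the 1 became 4 with repeat totals, where the median of all names was 0.07 instead of 1.36, with ETnERV2-int at -0.62, RLTRETN_Mm at -1.19 and MMETn-int at -0.33. The cause was not tested. Over all names, calls also moved by over 1.5 times: at E16.5 39 with the block against 0; at D2.5 36 with repeat totals and 9 with genes and names in 1 fit against 14 (KO over WT 45 and 10 against 16); in the KO effect of E18.5 minus E16.5 13 with the block and 0 with repeat totals against 2; in the KO effect of D2.5 minus E18.5 5 with RLE factors, 2 with repeat totals and 1 in 1 fit against 20; in KO at E18.5 against E16.5 51 with repeat totals, 106 in 1 fit and 111 with TMM over genes and names against 337; and in HT 13 with that TMM to 184 with RLE factors against 78. With 1 library left out the names called were 63 to 274 at E18.5 (113 with all), 10 to 20 in KO against WT at D2.5 (16), 0 to 2 at E16.5 (0), 3 to 58 in the KO effect of D2.5 minus E18.5 (20), 0 to 13 in that of E18.5 minus E16.5 (2), 8 to 233 in KO at E18.5 against E16.5 (337) and 1 to 109 in HT (78). The lowest of these were 8 without KO replicate 2 of E16.5 and, in HT, 1 without HT replicate 1 or 2 of E16.5 or HT replicate 1 of E18.5; the highest of D2.5 minus E18.5 was 58 without HT replicate 1 of D2.5.

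Signs near 0 also turned. At D2.5 KO against HT, repeat totals gave 0.13 for ETnERV2-int, 0.11 for RLTRETN_Mm and 0.14 for MMETn-int, and TMM over genes and names gave 0.0057 for MMETn-int. With 1 library left out, KO against HT at D2.5 ranged over -0.20 to 0.083 for ETnERV2-int, -0.19 to 0.18 for ETnERV3-int, -0.24 to 0.12 for RLTRETN_Mm and -0.23 to 0.13 for MMETn-int. KO against WT ranged over -0.030 to 0.077 for ETnERV-int, -0.086 to 0.20 for ETnERV2-int, -0.089 to 0.28 for ETnERV3-int, -0.12 to 0.24 for RLTRETN_Mm and -0.14 to 0.22 for MMETn-int, and HT against WT over -0.032 to 0.23 for ETnERV3-int. ETnERV3-int ranged over -0.0052 to 1.08 in KO against HT at E16.5, -0.10 to 0.93 in the KO effect of E18.5 minus E16.5 and -0.24 to 0.023 in HT at D2.5 against E18.5, and ETnERV-int over -0.20 to 0.060 in the last.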
